A study of Mus musculus with 12 samples.

Results

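F-box proteins choose the targets of one kind of ubiquitin ligase, and the genes of this family were read here in mouse 2-cell embryos. The members were the genes whose symbol began with Fbxl, Fbxo or Fbxw followed by a digit. There were 78 of them among the 20244 genes in both expression tables together, 77 among the 17866 genes of the knockdown table and 78 among the 19390 genes of the immunoprecipitation table, which adds Fbxo24. By name they divided into 19 Fbxl, 36 Fbxo and 23 Fbxw genes. One of the 19, Fbxl12os, is a transcript from the strand opposite Fbxl12 and encodes no F-box protein. A subset of 15, Fbxw13 to Fbxw28, are copies described as oocyte-specific, and they were set beside the other 63.

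The study asked what happens at the 2-cell stage, when the embryo's own genome is switched on, if Eif1ad3 is depleted, and which RNAs come down with its protein. Control embryos, labelled WT, were from CF1 mice and received mRNA for RfxCas13d, an RNA-cutting enzyme, without a guide RNA, and Eif1ad3_KD embryos received the guide RNA and the mRNA together. The samples' protocol describes the reagent in another way, as antisense morpholino oligos given to oocytes with Cas13d protein, and the labels do not settle which was used. The immunoprecipitation embryos, all labelled Eif1ad3_OE, were injected as zygotes with synthetic mRNA encoding Eif1ad3 with a His tag (200 ng/uL). Lysates of 200 cells per replicate were then passed over beads bearing either an antibody to the tag (His) or a negative control IgG. Both arms of that comparison therefore carry the overexpressed protein, made from injected mRNA and not from the embryo's own gene. Each group had 2 libraries, named A and B. Nothing in the labels says that A and B came from separate collections of embryos, so p-values measure the spread between these libraries, which may be technical.

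The targeted Eif1ad3 was at 839 and 663 CPM (the unit of both tables, reads scaled to a common library total) in the controls and at 277 and 377 CPM in the knockdown libraries. Totals ran from 18173916 to 27902514 reads in the knockdown experiment and from 4678563 to 8364126 reads in the immunoprecipitation, so a floor of 3 reads was 0.108 to 0.165 CPM and 0.359 to 0.641 CPM. The libraries were amplified by PCR without molecular identifiers, so floors cover counting error only. Of 9 markers of the 2-cell embryo, 8 were listed, with sums of 2482 to 3398 CPM in the knockdown experiment. Of 10 markers of cumulus and granulosa cells, which surround the oocyte, 6 were listed there, with sums of 6.27 to 14.01 CPM. Among the 6, Cyp19a1 was at 3.32 and 8.47 CPM in the controls and at 11.1 and 0.55 CPM in knockdown A and B. Ptx3, Foxl2, Amh and Inha were not listed there. Less RNA per embryo and fewer contributing cells cannot be told apart in such pooled libraries.

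An F-box is a short domain that binds the adaptor Skp1. Skp1 in turn sits on the cullin Cul1, which carries the RING protein Rbx1 and an E2 enzyme, and the whole is called an SCF ligase. The rest of the F-box protein holds the substrate, through leucine-rich repeats in Fbxl proteins, WD40 repeats in Fbxw proteins and various other domains in Fbxo proteins. In oocytes and early embryos protein degradation of this kind removes maternal proteins and times the cell cycle. In the mouse the Fbxw family holds a series of recent duplicates whose transcripts are known from oocytes.

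In the reference annotation (RefSeq, GRCm38.p6) 14 of the 15 copies lie in 1 cluster on chromosome 9, in the order Fbxw21, Fbxw13, Fbxw20, Fbxw14, Fbxw28, Fbxw22, Fbxw16, Fbxw19, Fbxw15, Fbxw24, Fbxw25, Fbxw18, Fbxw26 and Fbxw27. From the first to the last of them the annotation holds 18 genes, of which 4 are not copies, and neither table lists any of those 4. The remaining copy by name, Fbxw17, is on chromosome 13. The 14 belong to 1 multigene family, and where their transcripts are alike reads could be shared or dropped between them, so each copy's own value is uncertain. How alike the transcripts are was not measured here.

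RefSeq promoter windows were at hand for 58 of the members and for 11 of the 14 clustered copies, all 11 on the minus strand. Over the 250 bases before the annotated start, the 55 pairs among these 11 were 84.7% to 97.3% identical, with a median of 91.0% over 205 to 250 aligned bases. The last 130 bases before the start are shown for 6 of them and for Fbxw17, to show how much of the promoter the clustered copies hold in common and that the copy on chromosome 13 does not. Capitals mark CAGCTG and TTTAAA. The windows (GRCm38.p6) are chr9:109234755-109234884 for Fbxw20, chr9:109287677-109287806 for Fbxw14, chr9:109339660-109339789 for Fbxw28, chr9:109495855-109495984 for Fbxw19, chr9:109568263-109568392 for Fbxw15 and chr9:109626060-109626189 for Fbxw24, all on the minus strand, and chr13:50417734-50417863 on the plus strand for Fbxw17.
Fbxw20: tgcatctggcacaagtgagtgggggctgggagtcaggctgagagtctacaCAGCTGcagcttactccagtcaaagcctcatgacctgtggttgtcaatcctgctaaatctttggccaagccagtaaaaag
Fbxw14: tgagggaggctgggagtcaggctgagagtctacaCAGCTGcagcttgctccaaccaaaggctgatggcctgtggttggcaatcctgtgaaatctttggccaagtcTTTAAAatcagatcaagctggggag
Fbxw28: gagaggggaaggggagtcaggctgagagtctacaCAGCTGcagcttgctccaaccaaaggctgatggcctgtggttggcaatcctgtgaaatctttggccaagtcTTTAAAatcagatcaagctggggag
Fbxw19: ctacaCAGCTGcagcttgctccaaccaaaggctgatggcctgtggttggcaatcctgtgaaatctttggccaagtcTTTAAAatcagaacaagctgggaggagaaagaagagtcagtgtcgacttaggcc
Fbxw15: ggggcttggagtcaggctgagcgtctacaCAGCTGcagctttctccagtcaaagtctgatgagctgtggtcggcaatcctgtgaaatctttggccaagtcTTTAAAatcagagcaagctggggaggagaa
Fbxw24: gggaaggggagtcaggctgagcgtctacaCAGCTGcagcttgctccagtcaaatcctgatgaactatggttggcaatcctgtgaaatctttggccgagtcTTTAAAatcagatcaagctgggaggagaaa
Fbxw17: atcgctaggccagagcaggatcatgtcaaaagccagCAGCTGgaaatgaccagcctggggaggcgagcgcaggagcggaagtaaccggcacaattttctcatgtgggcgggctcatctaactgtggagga

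CAGCTG is one form of the E-box, CANNTG, the site read by helix-loop-helix factors. It was present within 250 bases of the start in 11 of 11 clustered copies, in 8 of 46 other F-box promoters (17.4%) and in 12.9% of all 27025 promoters. CANNTG in any form was in 11 of 11 as well, but also in 67.4% of other F-box promoters and 66.2% of all. The A/T-rich hexamer TTTAAA was present in 10 of the 11, all but Fbxw20, against 15.2% of the other F-box promoters and 12.2% of all. From the first base of CAGCTG to the first base of TTTAAA the distance was 71 bases in each of the 10. The canonical TATAAA was in 0 of the 11, in 0 of 46 other F-box promoters and in 12.9% of all promoters. GGGCGG, the core of the GC box, was in 1 of 11 clustered copies, in 65.2% of other F-box promoters and in 32.7% of all. An 11-base string shared by all 11 copies, AAATCTTTGGC, occurred in 15 of the 27025 promoters. Fbxw17 had CAGCTG and GGGCGG, and neither TTTAAA nor the 11-base string. Both strands were searched, the motifs were picked with the sequences in view, and matches describe letters, not binding.

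In the knockdown experiment the clustered copies were set apart by 1 library. Their summed level was 3751 and 2854 CPM in controls A and B, 10771 CPM in knockdown A and 2664 CPM in knockdown B. Knockdown A was 3.26 times the control mean and knockdown B 0.807 times. The knockdown libraries therefore lay on opposite sides of both controls. Other F-box genes summed to 4109.7, 4120.3, 3764 and 4190.4 CPM in the same order. In that sum knockdown A was the lowest and knockdown B the highest, a smaller gap in the other direction. A large part of each sum was 1 gene, Fbxo15, at 1553, 1567, 1157 and 1379 CPM. Gene by gene the gap was not reversed. Over the 53 others tested, the median difference from the control mean in log2(CPM + 1) was 0.10 in knockdown A and -0.07 in knockdown B. As a share of all F-box CPM the cluster held 47.7% and 40.9% in the controls, 74.1% in knockdown A and 38.9% in knockdown B.

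The clustered copy with the most reads in these libraries, Fbxw24, was at 1064 and 825 CPM in the controls and at 3237 and 692 CPM in knockdown A and B. Fbxw28 was at 641 and 472 CPM in the controls against 2026 and 449 CPM. Fbxw14 was at 548 and 417 CPM, against 1835 and 442 CPM. In each of these copies knockdown A was more than 3 times either control, while knockdown B was near control B. The log2 fold changes, on the log2(CPM + 1) scale on which limma was run, were 0.68 (SE 0.63, adjusted p = 0.901) for Fbxw24, 0.79 (SE 0.62, adjusted p = 0.885) for Fbxw28 and 0.91 (SE 0.60, adjusted p = 0.859) for Fbxw14. Each standard error was nearly as large as, or a large part of, the difference, and no copy passed the threshold of 0.05.

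Fbxw15 was at 193 and 146 CPM in the controls and at 707 and 173 CPM in the knockdown libraries, with a log2 fold change of 1.06 (SE 0.60, limma adjusted p = 0.859). Fbxw27, at the far end of the cluster, was at 66.9 and 54.2 CPM, then 279 and 52.8 CPM, with a log2 fold change of 1.00 (SE 0.69, limma adjusted p = 0.865). For both, knockdown B lay within or just under the control range. As a ratio, Fbxw20 had the widest gap of the copies between the knockdown libraries, with 100.1 and 66.9 CPM in the controls against 437 and 46.8 CPM. Among the 11 copies with a window it is the one without TTTAAA. Fbxw25 was at 72.2 and 55.5 CPM in the controls and at 262 and 38.2 CPM in the knockdown libraries, the same shape as Fbxw20. Fbxw25 has TTTAAA at the common spacing, and a link between this motif and the levels was not tested. Fbxw26 was at 54.0 and 39.6 CPM, then 180.3 and 47.4 CPM.

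**Figure D1:**
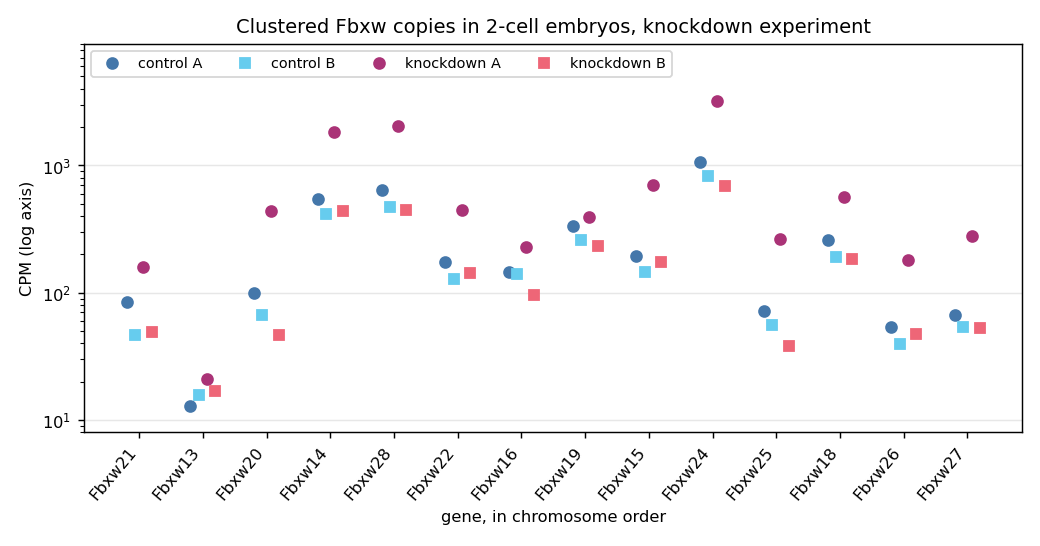
CPM (log axis) of the 14 clustered Fbxw copies, in chromosome order, in each of the 4 libraries of the knockdown experiment. Each point is 1 library, and the purple circles of knockdown A are the highest point for every copy, while knockdown B lies among or below the controls for all but Fbxw13.

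The height of knockdown A was uneven along the cluster. Relative to the control mean it was 5.23 times in Fbxw20, 4.61 in Fbxw27, 4.18 in Fbxw15 and 4.11 in Fbxw25, and between 2.40 and 3.85 in Fbxw21, Fbxw18, Fbxw22, Fbxw24, Fbxw28, Fbxw14 and Fbxw26. It was lowest in 3 copies, at 1.60 in Fbxw16, 1.47 in Fbxw13 and 1.33 in Fbxw19. Fbxw16 and Fbxw19 follow each other in the order of the copies. Fbxw19 was at 336 and 259.8 CPM in the controls and at 395 and 235 CPM in the knockdown libraries. Fbxw16 was at 145 and 139.6 CPM in the controls and at 227 and 96.9 CPM. Both also carry the promoter features listed above, including CAGCTG and TTTAAA at the common spacing. Fbxw13, with the fewest reads of the cluster, was at 12.96 and 15.9 CPM, then 21.2 and 16.8 CPM, and was the only copy with both knockdown libraries above both controls.

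The makeup of the cluster moved accordingly. Fbxw19 held 8.97% and 9.10% of the cluster's CPM in the controls and 8.81% in knockdown B, but 3.67% in knockdown A. The share of Fbxw24 was 28.4%, 28.9%, 30.0% and 26.0% in controls A and B and knockdown A and B. For Fbxw20 the shares were 2.67%, 2.34%, 4.05% and 1.76%. The profile of knockdown B was thus close to the controls for Fbxw19, and the profile of knockdown A was not.

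**Figure D2:**
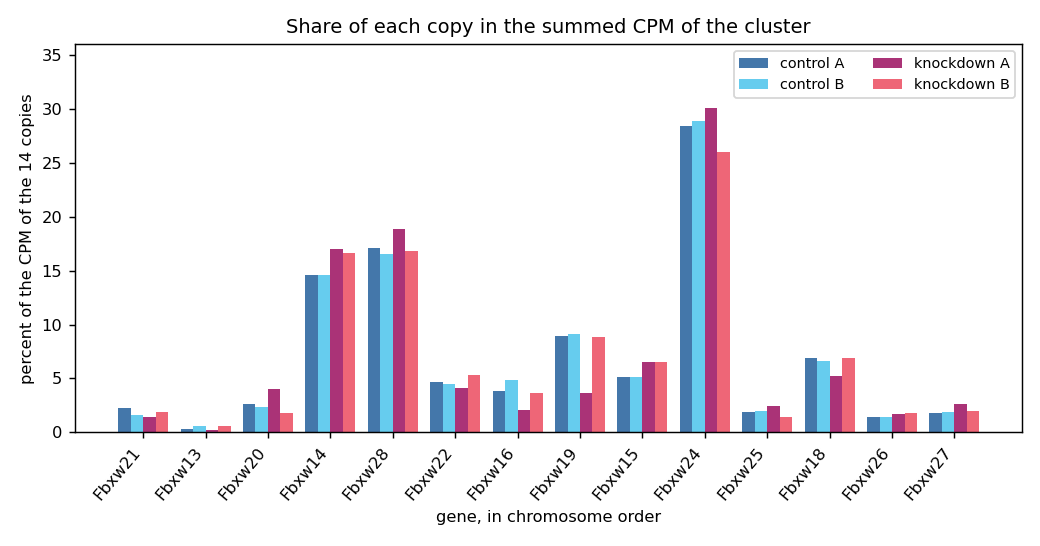
Percent of the summed CPM of the 14 clustered copies that each copy held, in chromosome order, with 1 bar per library of the knockdown experiment. The bar of knockdown A is the lowest of the 4 at Fbxw19 (3.67%) and Fbxw16 (2.11%) and the highest at Fbxw20 (4.05%).

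All 77 listed members were counted against a filter of at least 1 CPM in at least 2 of the 4 libraries, and 67 passed it, the 14 clustered copies and 53 others. Knockdown A was above both controls in 14 of 14 clustered copies and in 25 of 53 other F-box genes, against 45.5% of all 13332 genes tested. It exceeded the control mean by more than 1 log2 unit in 11 of 14 copies and in 8 of 53 others, where 12.6% of all genes did. Knockdown B was below both controls in 8 of 14 copies and 22 of 53 others, close to the 46.7% of all genes. Both held at once, knockdown A above and knockdown B below the controls, in 8 of 14 copies and 9 of 53 others (all genes, 19.1%). Knockdown A was more than 2 times knockdown B in 12 of 14 copies and 16 of 53 others, with 29.2% of all genes. The reverse, knockdown B more than 2 times knockdown A, was seen in none of the 14 copies and in 10 of the 53 others (all genes, 11.9%). In the counts on knockdown A alone, the F-box genes outside the cluster were near the share of all genes and the clustered copies were above it. The copies share a locus and much of their promoter sequence and may share reads, so these counts do not stand for 14 separate observations.

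**Figure D3:**
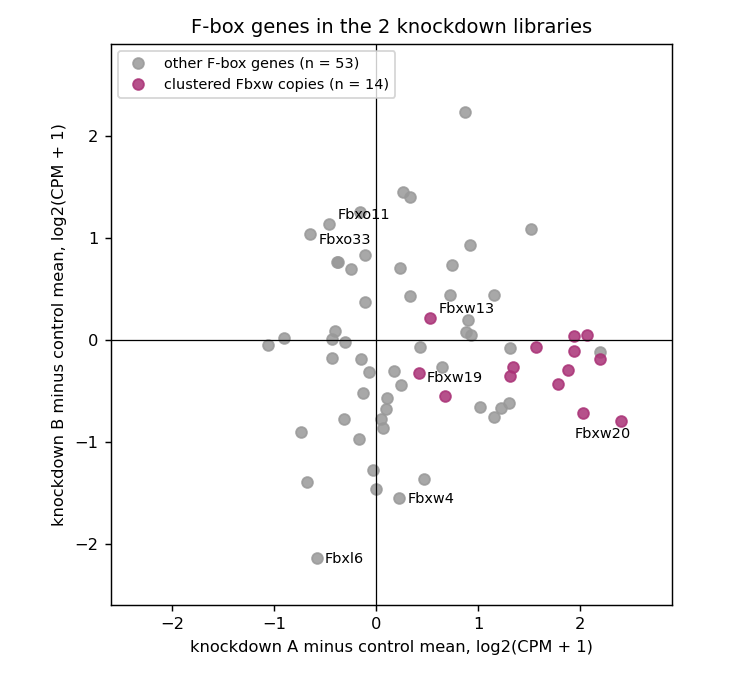
Each F-box gene tested by its difference from the control mean, in log2(CPM + 1), in knockdown A (horizontal axis) and knockdown B (vertical axis), with the 14 clustered copies in purple and 53 other F-box genes in grey. All 14 copies lie to the right of 0, with a median of 1.83 in knockdown A and -0.28 in knockdown B, while the other genes spread around 0.

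The fit across all genes called nothing in this experiment at an adjusted p of 0.05. With limma 0 of the 67 F-box genes and 0 of 13332 genes passed (0% called), and 3 of the 67 and 726 of all genes (5.45%) had an unadjusted p under 0.05. On the recovered reads edgeR called 0 genes (758 at an unadjusted p under 0.05) and DESeq2 called 15, none of them an F-box gene. The median log2 fold change was 0.71 over the clustered copies, 0.18 over the other F-box genes and 0.02 over all genes. All 14 copies had a fold change above 0, against 51.3% of all genes, but only 12 of 14 did after each library was rescaled to a common median. The median SD of the copies on the log2 scale was 0.28 between the controls and 1.39 between the knockdown libraries, against 0.24 and 0.49 for all genes.

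Each knockdown library was also compared with the controls alone, under the assumption that the lone sample varies like the controls. Without knockdown B, 11 of the 14 copies passed as higher (limma, adjusted over 12810 genes, 2.32% of which passed as higher). The 3 that did not were Fbxw13, Fbxw16 and Fbxw19, and no other F-box gene passed. Without knockdown A, 0 of the 14 copies passed in either direction, where 6.1% of 12547 genes passed as higher and 9% as lower. The median fold change of the copies was then -0.28. Only 3 of the 14 copies then kept a fold change above 0, so the higher level of the copies as a group rests on knockdown A.

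Transcripts of oocyte genes also differed between the knockdown libraries. Of 10 oocyte markers, 4 were more than 1 log2 unit above the control mean in knockdown A and 5 were more than 1 log2 unit below it in knockdown B, against 12.6% and 15.4% of all genes. Gdf9, an oocyte growth factor, was at 345 and 283 CPM in the controls and at 1005 and 91.2 CPM in knockdown A and B. Bmp15, its partner, was at 845 and 728 CPM, then 2019 and 1055 CPM. Nlrp5, a maternal-effect gene, was at 169 and 194 CPM, then 474 and 65.0 CPM. Gdf9, Bmp15 and Nlrp5 were all among the 4 that were high in knockdown A. The median log2 fold change of the 10 markers was -0.20. The median deviation of the 10 markers from the control mean was 0.50 in knockdown A and -1.07 in knockdown B, against 1.83 and -0.28 for the clustered copies. Their summed level, led by Oog3, was 13749, 9469.9, 13848 and 8795 CPM. The controls also differed from each other, in the same direction for both sets of genes. Control A was above control B in 13 of 14 copies and in 9 of 10 oocyte markers, against 45.3% of all genes. The part of maternal RNA levels, depth or library quality in the height of the copies was not tested.

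Fbxw17, outside the cluster, was too low to compare. It had 21 and 0 reads in controls A and B, and 48 and 0 reads in knockdown A and B, and failed the filter. The other 9 members that failed it in this experiment were Fbxl16, Fbxo2, Fbxo27, Fbxo32, Fbxo39, Fbxo4, Fbxo41, Fbxo44 and Fbxw10, each under 2 CPM in every library. Among them Fbxo32, also called atrogin-1 and known from muscle wasting, was at 0 and 0.884 CPM in the controls and at 1.79 and 0.990 CPM in the knockdown libraries. Of the 67 that passed, Fbxo48 alone passed it through the knockdown libraries only, with 0 and 0.884 CPM in the controls against 1.51 and 5.45 CPM.

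Outside the cluster the members were mixed. Both knockdown libraries were above both controls in 9 of 53 genes (18.1% of all genes) and below both in 5 of 53 (18.4% of all genes). Fbxo30, a ligase known to act on cell division in oocytes, was at 25.6 and 18.6 CPM in the controls and at 42.3 and 42.5 CPM in the knockdown libraries. Its groups did not overlap, and its log2 fold change was 0.93 (SE 0.42, limma adjusted p = 0.859). Fbxl12os was at 6.56 and 9.56 CPM, then 10.2 and 22.6 CPM, and its partner on the other strand, Fbxl12, was at 18.4 and 25.4 CPM, then 16.5 and 37.4 CPM. Library preparation of this kind does not keep the strand, so reads of these overlapping genes cannot be told apart. Fbxo3 was at 14.3 and 7.67 CPM in the controls and at 18.2 CPM in both knockdown libraries. Fbxo9 was at 30.6 and 25.4 CPM, then 53.0 and 32.0 CPM. Fbxo8 was at 238 and 213 CPM, then 264 and 368 CPM. In each of these 3 the knockdown libraries lay above the controls by a margin no larger than the gap within one of the groups.

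Among the genes on the other side, Fbxl6 had the largest difference, at 84.1 and 60.5 CPM in the controls and at 47.3 and 15.4 CPM in the knockdown libraries. The lowest value was knockdown B, and the groups did not overlap. Its log2 fold change was -1.36 (SE 0.55, limma adjusted p = 0.859, unadjusted p = 0.039). Fbxo31, which takes part in the DNA damage response, was at 18.8 and 22.3 CPM, then 12.4 and 7.15 CPM, with a log2 fold change of -1.04 (SE 0.51, limma adjusted p = 0.859). Fbxw9 was at 22.3 and 22.0 CPM, then 17.6 and 12.5 CPM. Fbxo15, first known as a target of Oct4 in embryonic stem cells, was at 1553 and 1567 CPM in the controls and at 1157 and 1379 CPM. The Fbxo15 controls were nearly equal and both knockdown libraries were below them, yet its adjusted p with limma was 0.906. Fbxl15, a regulator of BMP signalling, was at 3.52 and 1.73 CPM, then 1.11 and 0.880 CPM.

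**Figure D4:**
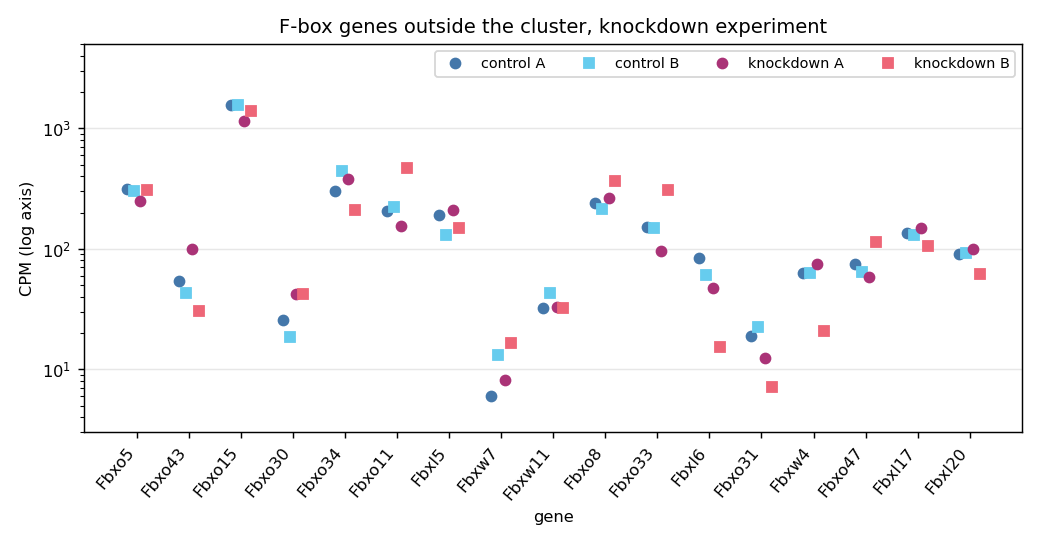
CPM (log axis) of named F-box genes outside the cluster in each library of the knockdown experiment, 1 point per library. The 2 knockdown points of Fbxo30 coincide above the controls, those of Fbxl6 and Fbxo31 lie below, and in Fbxo43, Fbxo11 and Fbxo33 they lie on opposite sides of the controls.

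Fbxo5 and Fbxo43 inhibit the anaphase-promoting complex, the large ligase that ends meiosis and mitosis. The first, also called Emi1, was at 315 and 304 CPM in the controls and at 250.2 and 305 CPM in the knockdown libraries. Fbxo43, or Emi2, holds mouse eggs in metaphase of meiosis II, and was at 54.5 and 43.3 CPM, then 99.7 and 30.4 CPM. Fbxo43 thus had knockdown A above and knockdown B below both controls, as 8 of the 14 clustered copies did, and Fbxo5 did not. A list of 18 genes held subunits of the complex, its activators and its E2 enzymes Ube2c and Ube2s. Of these 18, 2 had both knockdown libraries above the controls (18.1% of all genes) and 5 had both below (18.4% of all genes). None passed with limma (0%). Cdc20, the activator in mitosis, was at 302 and 403 CPM, then 178 and 88.7 CPM.

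The opposite shape, knockdown A below both controls and knockdown B above both, was seen in 7 of 53 F-box genes outside the cluster and in none of the 14 copies, against 8.21% of all genes. Fbxo11, a gene of ear and palate development, was at 207 and 223 CPM in the controls and at 156 and 472 CPM in knockdown A and B. Fbxo33 was at 151 and 149.6 CPM, then 95.8 and 310.2 CPM. In these genes knockdown B was the library that stood apart. Fbxo47, known for a role in meiotic chromosomes, was at 74.7 and 64.3 CPM, then 58.4 and 113 CPM. Fbxo45, a gene of the nervous system, was at 49.2 and 62.0 CPM, then 42.0 and 94.5 CPM. Without knockdown A, Fbxo11, Fbxo33 and Fbxo8 passed as higher and Fbxl6, Fbxo42, Fbxo34, Fbxw4 and Fbxo6 as lower with limma, of 50 tested, where 6.1% of all genes passed as higher and 9% as lower. None of these passed with both libraries. Fbxw4 was at 63.0, 63.6, 74.3 and 20.9 CPM in controls A and B and knockdown A and B.

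Adaptors with well-known substrates were next compared. Fbxw7, which marks cyclin E and Myc, was at 6.00 and 13.1 CPM in the controls and at 8.21 and 16.6 CPM in the knockdown libraries. Fbxw11, a beta-TrCP protein, was at 32.1 and 42.7 CPM, then 33.2 and 32.3 CPM. Fbxl5, the iron sensor that controls Ireb2, was at 190.2 and 129.6 CPM, then 211 and 149 CPM. In all 3 the groups overlapped. Fbxo34 was at 299 and 444 CPM, then 378 and 212 CPM. Fbxo42, which binds p53, was at 32.0 and 41.0 CPM, then 35.3 and 14.4 CPM. Fbxl20 was at 91.4 and 92.1 CPM, then 98.7 and 61.2 CPM. In Fbxo34, Fbxo42 and Fbxl20 the lowest of the 4 values was knockdown B. Fbxo7, a Parkinson's disease gene, was at 5.84 and 13.5 CPM, then 23.7 and 8.42 CPM. Fbxl14, which degrades Snail proteins, was at 3.80 and 3.66 CPM, then 4.66 and 11.9 CPM. Fbxo38 was at 23.0 and 17.6 CPM, then 19.1 and 16.0 CPM. Both of the Fbxl14 knockdown values were above the controls, although at a few CPM. Fbxw5 and Fbxw8 stayed under 5 CPM in every library.

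The core of the SCF ligase was present throughout. Skp1 was at 451 and 345 CPM in the controls and at 816 and 367 CPM in knockdown A and B. Cul1 was at 1741 and 1857 CPM, then 2082 and 1833 CPM. Rbx1 was at 386 and 362 CPM, then 474 and 416 CPM. Of the core, Skp1 was high in knockdown A alone and Rbx1 was slightly above the controls in both. Genes of F-box proteins that go by other names were read as well. Btrc was at 36.6 and 34.0 CPM, then 74.0 and 21.0 CPM. Skp2 was at 55.7 and 80.8 CPM, then 52.0 and 109 CPM. Ccnf, the first F-box protein described, was at 86.2 and 95.8 CPM, then 68.8 and 36.3 CPM, below the controls in both. Kdm2a ranged from 7.48 to 9.68 CPM and Kdm2b from 29.6 to 69.3 CPM. Over the list of SCF and cullin genes, 39 of 41 were tested, 12 had both knockdown libraries above the controls (18.1% of all genes), 3 had both below (18.4% of all genes), and none passed with limma. The median log2 fold change of that list was 0.22, against 0.18 for the F-box genes outside the cluster.

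The immunoprecipitation asked which RNAs come down with His-tagged Eif1ad3 beyond those that come down with IgG. The summed level of the clustered copies was 502 and 667 CPM in the IgG libraries and 2217 and 2343 CPM in the His libraries. The means were 585 ± 117 CPM for IgG and 2280.1 ± 89.1 CPM for His (SD, n = 2 each). The other F-box genes summed to 3073 and 2378 CPM in IgG and to 3013 and 3043 CPM in His. The cluster's share of F-box CPM was 14.03% and 21.9% in IgG and 42.4% and 43.5% in His.

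IgG recoveries held few genes: 39 and 37 of the 78 members were at 0 reads in IgG A and B, against 9 and 6 in His A and B. Of all 19390 genes listed, 12574 and 12217 were at 0 reads in IgG A and B, and 5146 and 5313 in His A and B. The members were thus at 0 less often than genes in general. A count of 0 allows up to 0.506 and 0.641 CPM in those libraries. Of the 78 members, 63 passed the filter, the 14 clustered copies and 49 others. With limma 20 of the 63 rose in His over IgG and none fell, where 35.7% of 11232 genes rose and 0.917% fell. Of these 20, 19 were under 1 CPM in both IgG libraries and so had entered the test through their His values alone, which leaves them little room not to differ. The same held for 3644 of the 4008 genes that rose overall. These calls were lost in some other fits. With edgeR, run on reads recovered from the CPM, 0 genes passed (4592 at an unadjusted p under 0.05, smallest adjusted p 0.0547). Quantile normalization left 0 with limma (2339 unadjusted). DESeq2 called more genes than limma, 5513 (49.1%), of which 27 higher and 1 lower were F-box genes. Both His libraries lay above both IgG libraries in 11 of 14 clustered copies and in 27 of 49 others, against 54.1% of all genes, and below in 0 and 2, against 9.06%. The copies' share of passing genes, 5 of 14, and that of the others, 15 of 49, were near the share over all genes.

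The 5 copies that rose were Fbxw13, Fbxw21, Fbxw25, Fbxw26 and Fbxw27. Fbxw27 had 0 reads in both IgG libraries and 124 and 116 CPM in His A and B, at least 187-fold higher than the 3-read floor of a single IgG library. Its fitted log2 fold change of 6.92 (SE 0.61, limma adjusted p = 0.00997) depends on the pseudocount. Fbxw26 had 0 reads in both IgG libraries and 49.3 and 59.7 CPM in His, at least 84.99-fold higher. Fbxw21 had 0 reads in both, against 22.8 and 34.2 CPM in His, at least 44.5-fold higher. Fbxw13 had 0 reads in both, against 23.4 and 14.5 CPM, at least 29.6-fold higher. Fbxw25 was at 0.338 and 0.855 CPM in IgG, from 2 and 4 reads, and at 50.3 and 61.8 CPM in His, with a log2 fold change of 5.17 (SE 0.60, limma adjusted p = 0.0114). In all 5 copies the 2 His libraries were within a factor of 2 of each other.

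The copies with the most reads in the knockdown experiment were not among those that passed with limma. Fbxw24, Fbxw28 and Fbxw14 did pass with DESeq2 (adjusted p = 0.0204, 0.0013 and 0.00338), which called 49.1% of all genes tested, in either direction. In these copies His stayed above IgG when either IgG library was left out. Such a fit keeps 1 IgG sample and does not see the spread between the IgG libraries, so it cannot decide whether these copies pass. Fbxw24 was at 4.39 and 113 CPM in IgG, against 725 and 657 CPM in His. Its groups did not overlap, and its log2 fold change was 4.80 (SE 1.79, limma adjusted p = 0.140). Fbxw28 was at 68.7 and 74.6 CPM in IgG, against 262 and 346 CPM in His, with a log2 fold change of 2.06 (SE 0.55, limma adjusted p = 0.0692). Fbxw14 was at 53.0 and 35.9 CPM, then 265 and 263 CPM, with a log2 fold change of 2.57 (SE 0.66, limma adjusted p = 0.0618). Within each of these copies the His values were close to each other, and Fbxw24 differed between the IgG replicates. Fbxw22 was at 370.5 CPM in IgG A and 0.855 CPM in IgG B, against 149 and 183 CPM in His. Fbxw16 showed the reverse, with 0.169 CPM in IgG A and 184 CPM in IgG B, against 37.4 and 57.6 CPM in His. Fbxw18 was at 0 and 84.0 CPM in IgG, against 186 and 172 CPM in His. Fbxw20 was at 0.675 and 31.0 CPM in IgG, against 145 and 206 CPM in His. IgG replicates were more than 10 times apart in 7 of 14 copies and 22 of 49 others, against 31.2% of all genes. His replicates were more than 10 times apart in none of the 14 and 2 of 49, against 2.43% of all genes.

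**Figure D5:**
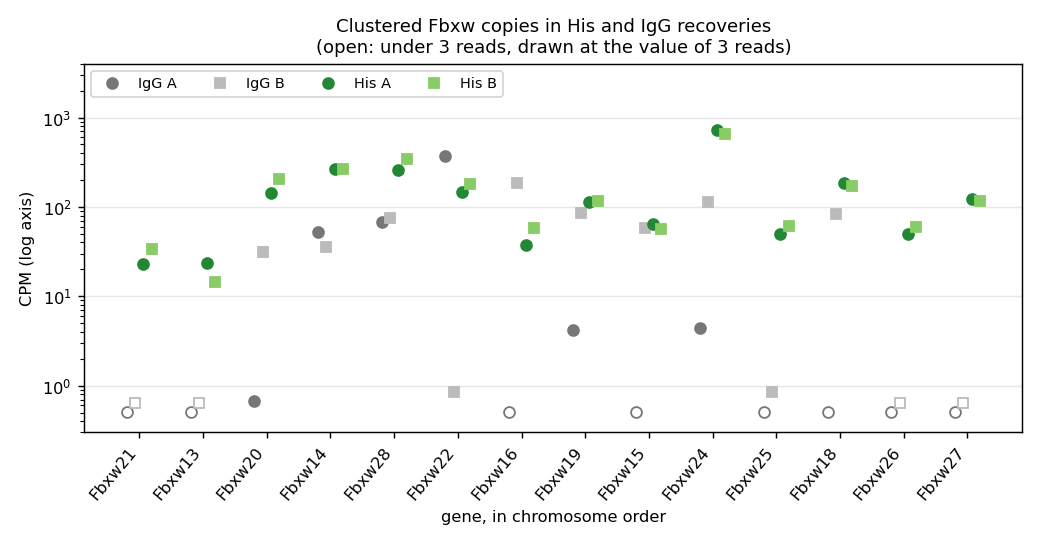
CPM (log axis) of the 14 clustered copies, in chromosome order, in IgG (grey) and His (green) recoveries, 1 point per library; open points stand for fewer than 3 reads and are drawn at the value of 3 reads. The green points of each copy lie close together, and the grey points of 7 copies lie more than 10 times apart.

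The median log2 fold change of His over IgG was 4.28 over the clustered copies, 1.94 over the other F-box genes and 2.01 over all genes. With genes at 0 in both IgG libraries set at their lower bound, the medians were 4.43, 1.94 and 2.12. Genes at 0 in both IgG libraries made up 4 of 14 copies, 9 of 49 others and 28.2% of all genes tested. Without IgG A the median of the copies was 2.72, near the 2.29 of the others, and without IgG B it was 5.38 against 2.64. The distance between the copies and the other F-box genes therefore rests on which IgG library is used.

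Outside the cluster, Fbxl17 rose, from 2 and 0 reads in IgG to 126 and 79.9 CPM in His, with a log2 fold change of 6.45 (SE 0.67, limma adjusted p = 0.0101). Fbxl17 checks that BTB-domain proteins pair correctly. Fbxw8, which works with the cullin Cul7, had 0 reads in both IgG libraries and 77.5 and 43.1 CPM in His, at least 94.0-fold higher. In the knockdown experiment the same gene had stayed under 5 CPM in all libraries. Those were other embryos, normalized separately, so the difference is not a measure of recovery over the embryo's own level. Fbxo9 was at 0.506 and 0 CPM in IgG, against 45.6 and 73.0 CPM in His, and passed. Fbxo36 had 0 reads in both IgG libraries and 31.7 and 33.7 CPM in His, at least 51.0-fold higher. Fbxo21 had 0 reads in both, and 20.1 and 21.7 CPM in His, at least 32.6-fold higher. Fbxw2, not among those that passed, was at 0 and 12.8 CPM in IgG, against 33.6 and 35.0 CPM in His.

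Fbxo34 was the one F-box gene that rose from an IgG level above 1 CPM. It was at 113 and 90.0 CPM in IgG, against 499 and 486 CPM in His, so the replicates were tight in both groups. Its log2 fold change was 2.28 (SE 0.42, limma adjusted p = 0.0292). Of all genes tested, 364 (3.24%) passed as higher from at least 1 CPM in an IgG library. The call was lost in several other fits. With limma the adjusted p of Fbxo34 was 0.133 with the replicate letters as a block, 0.132 after median rescaling and 0.141 after quantile normalization. With edgeR it was 0.0769. The log2 fold change in these fits, in that order, was 2.28, 1.86, 2.55 and 2.18. DESeq2 kept the call, with a log2 fold change of 1.92 (adjusted p = 0.000544).

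Among the inhibitors of the anaphase-promoting complex, Fbxo5 rose, from 0 and 0.855 CPM in IgG to 28.6 and 20.6 CPM in His, with a log2 fold change of 4.21 (SE 0.56, limma adjusted p = 0.0141). Its fold change was 6.30 and 2.44 with pseudocounts of 0.1 and 5. The call was lost after quantile normalization (0.98, limma adjusted p = 0.514) and with edgeR (5.88, adjusted p = 0.107). It was kept with DESeq2 (5.72, adjusted p = 4.58e-05). Fbxo43 was at 1.01 and 18.6 CPM in IgG, against 45.6 and 51.2 CPM in His, without overlap, and did not pass. Fbxo15 overlapped, at 129 and 4.70 CPM in IgG, against 76.5 and 114 CPM in His. Others that passed include Fbxl12os, Fbxw7, Fbxo38, Fbxo30, Fbxl18, Fbxo40 and Fbxl2, with His values from 1.20 to 18.3 CPM.

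The largest difference in the other direction was that of Fbxo31, at 252 and 97.3 CPM in IgG, against 31.6 and 26.4 CPM in His. Its groups did not overlap, and its log2 fold change of -2.40 (SE 0.92, limma adjusted p = 0.147) did not pass. Fbxl19 was at 136 and 148 CPM in IgG, against 124 and 122 CPM in His. Several other members had 1 IgG library far above His and the other near 0, such as Fbxo46, with 572 and 0.427 CPM in IgG against 50.8 and 84.5 CPM. Fbxl12 was at 0 and 402 CPM in IgG, against 59.3 and 97.5 CPM in His. Exactly 1 IgG library was at 0 reads in 1 of 14 copies and in 22 of 49 others, against 30.8% of all genes. Of the 15 members that failed the filter, Fbxw17 had 28 reads in IgG A and 0 in the other 3 libraries. The remaining 14 were Fbxl13, Fbxl16, Fbxl21, Fbxl22, Fbxl4, Fbxo2, Fbxo24, Fbxo32, Fbxo39, Fbxo4, Fbxo41, Fbxo47, Fbxo48 and Fbxw10, none above 8.73 CPM in any library.

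Of the SCF and cullin genes, 9 of 36 tested rose in His over IgG, or 25.0%, beside 35.7% of all genes. Btrc rose, from 0.338 and 0 CPM in IgG to 54.3 and 64.8 CPM in His. Skp2 rose, from 0.506 and 0.427 CPM to 14.5 and 45.6 CPM. Skp1 was at 340.1 and 318 CPM in IgG, against 480.03 and 488 CPM in His, without overlap, and did not pass. Rbx1 was at 1430.3 and 2236 CPM in IgG, against 960.4 and 922 CPM in His. The 10 oocyte markers summed to 3535 and 5045 CPM in IgG and to 10536 and 11030 CPM in His, so the clustered copies and the oocyte markers were both higher in the His libraries. The 8 listed cumulus and granulosa markers summed to 0 CPM in both IgG libraries and to 10.3 and 28.7 CPM in His, with Has2, Fshr and Lhcgr at 0 throughout. Of 3 blood markers 1 was listed, at 0 CPM in both IgG libraries and 52.6 and 64.8 CPM in His. The 4 blastocyst markers summed to 0 and 0.214 CPM in IgG, against 60.7 and 46.1 CPM in His, with Cdx2 at 0 throughout. The part of such cells or of total recovered RNA in either difference was not tested.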

How the data were processed

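Per the labels' protocols, cDNA was amplified by Smart-seq2, tagged by Nextera XT and read as 150 bp pairs. The submitters' processing notes name Trim Galore 0.6.7, FastQC, HISAT2 2.2.1, featureCounts 2.0.1, edgeR and GRCm39. Both deposited tables hold CPM: the authors scaled the count of a gene by a library total. In all 8 libraries used, 100% of values were whole reads within 0.01, so reads and totals were recovered.

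The filter asked for 1 CPM or more in 2 or more of 4 libraries. The test was limma 3.58.1 (R 4.3.3; eBayes with trend, two-sided) on log2(CPM + 1), Benjamini-Hochberg over all genes tested, threshold 0.05. edgeR 4.0.16 and DESeq2 1.42.0 on recovered reads, other pseudocounts, filters and scalings, a replicate block and leaving out each library were alternatives. The code was tested on simulated counts. The tables were normalized separately and tested separately.

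Of 12 labelled samples 8 were used. The names of 4 value columns do not decide between input and total RNA, so these and their 12 planned results were not analysed here. Genes named are the copies Fbxw13 to Fbxw28, members of known role, the members with the largest changes whose groups did not overlap (mean 10 CPM or more), and the SCF core. Fbxw4, Fbxo33, Cdc20, Fbxo46, the genes past an unadjusted or leave-one-out threshold, the members that failed a filter and the oocyte genes were named after their values were seen. The members and lists were chosen with earlier results of these data known. Promoters and gene order are from RefSeq, GRCm38.p6, and all 78 members matched by symbol. The values of 1 member are not reported here, though it is included in counts and sums.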

Additional observations from a re-analysis of the deposited data

How the results depend on the processing

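In the knockdown experiment the number of genes called was 0 with limma, 2 with the replicate block and 15 with DESeq2. Leaving out 1 library gave 0 to 1894 genes and 0 to 11 F-box genes, 11 without knockdown B and 8 without knockdown A. The median log2 fold change of the clustered copies ran from -0.28 (without knockdown A, a reversal) to 1.83 (without knockdown B). That of the other F-box genes was 0.055 at a mean of at least 5 CPM, 0.31 with edgeR and 0.31 with DESeq2, and ran from -0.063 (without knockdown A) to 0.099 on leaving out libraries. On leaving out libraries the fold change ran from -0.44 to 1.79 for Fbxw24, from -0.11 to 1.94 for Fbxw14, from -0.29 to 1.88 for Fbxw28 and from -0.19 to 2.19 for Fbxw27. The negative ends were without knockdown A. All 8 single genes tried kept their direction and their side of the threshold in all settings that kept every replicate, 72 comparisons over genes and settings.

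In His against IgG the number of genes called was 4111 with limma, 2356 at a mean of at least 5 CPM, with fewer genes tested, and 0 with quantile normalization or edgeR. It ran from 6 to 7679 on leaving out libraries. F-box genes called were 20, 0 with quantile normalization or edgeR, and 0 to 50 on leaving out libraries. The 0 came without either His library, where 39 or 40 F-box genes were tested and genes under 1 CPM in both IgG libraries were not. The median of the clustered copies, 4.28, was 5.03 and 2.60 with pseudocounts of 0.1 and 5, 3.01 with edgeR, 2.77 with DESeq2, 2.46 with quantile normalization and 2.58 to 5.38 on leaving out libraries. The median of the other F-box genes, 1.94, was 3.41 and 0.98 with pseudocounts of 0.1 and 5, 1.76 with no filter, 1.80 with the 5 CPM filter, 1.23 with edgeR, 1.80 after median rescaling, 1.02 with DESeq2, 0.40 after quantile normalization and 1.30 to 2.64 on leaving out libraries. The median of all genes moved too, from 2.01 to -0.08 with quantile normalization, 1.76 with median rescaling, 1.56 with edgeR and 1.30 with DESeq2, and in each of these settings the clustered copies' median was above it. No single gene of the 11 tried changed direction, but of 99 comparisons over genes and settings that kept every replicate 16 lost a call and 4 gained one, and of all 131 comparisons 18 lost and 12 gained one. The cause of these shifts was not tested unless named.

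Replicates A and B share only a letter: the correlation of same-letter deviations across genes was 0.15 in the knockdown table and -0.01 in the immunoprecipitation table. With the replicate block 2 genes were called in the knockdown comparison and 3894 in His against IgG, with 0 and 20 F-box genes. Results against input or total RNA, and a fit over further immunoprecipitation libraries, were not run. Limits of depth bear on members under about 1 CPM, and in IgG on most members.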
